A study of Mus musculus with 6 samples.

Results

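Centrosomal Cep genes are mouse protein-coding genes whose symbol starts with Cep and a number, and 38 of the 21887 protein-coding genes on chromosomes 1 to 19, X and Y carry such a name. They were picked because Flag-Rxra peaks are frequent near their ends, so how often they hold such a peak, and how strong it is, is a description here and not a test. Cultures of OG2X129 mouse embryonic fibroblasts put through chemical reprogramming to pluripotent stem cells (ciPSC) were profiled by CUT&Tag, in which an antibody brings a transposase to its target and the DNA cut there is sequenced. The 6 samples formed 3 groups of 2: H3K27ac after CD, H3K27ac after DMSO, and Flag in cells that overexpressed Flag-tagged Rxra. CD3254, which the series title names, is a synthetic agonist of the retinoid X receptors, and DMSO is the solvent control. Whether the Flag-Rxra cells also received CD or DMSO, which promoter drove the construct, on which day cells were taken and whether replicates were separate cultures is not stated in the labels.

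Rxra is a nuclear receptor that usually binds DNA in a pair with another receptor, and H3K27ac is an acetylated histone found at promoters and enhancers in use. The centrosome is built from a pair of centrioles in a protein matrix, the pericentriolar material, and it organises microtubules and the poles of the mitotic spindle. Its older centriole carries distal and subdistal appendages and, in cells out of the cycle, becomes the base of the primary cilium, which fibroblasts form readily. Cep is a naming scheme, centrosomal protein followed by an approximate mass, and not a gene family, so most members are unrelated in sequence and were grouped here by role.

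The files were peak lists with no read counts, so depth is unknown. Flag-Rxra replicates 1 and 2 had their own lists, of 28243 and 45999 peaks, while H3K27ac replicates shared 1 list per condition (104437 regions for CD and 75482 for DMSO), so H3K27ac values have no replicate error. A region marked in fewer cells and a region with less mark per cell cannot be told apart in such bulk samples. No control library was used here, and a called peak does not by itself show that Rxra binds. H3K27ac regions lay within 1 kb of an end of 7 of 16 fibroblast marker genes in either list (6 in CD, 5 in DMSO), beside 53.0% of all genes in either list, 38.3% in CD and 35.8% in DMSO. Col1a1, Col1a2, Col5a1, Dcn, Fbn1, Lum, Postn, Prrx1 and Thy1 had none. Markers of other cell types had such a region at 2 of 6 (pluripotent cells), 2 of 7 (multiciliated cells), 3 of 5 (macrophages), 3 of 4 (endothelium) and 3 of 4 (keratinocytes) genes, so the regions near gene ends did not set fibroblast markers apart, and the part of this in the Cep values was not tested.

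The upstream sequences of strongly bound Cep genes are shown first, because the peaks described below lie on them. Each is the run of up to 200 bases before the gene that lies in no annotated gene, 5′ to 3′ on the gene's strand, from RefSeq (GRCm38.p6). Capitals mark the letters GGGCGG (SP and KLF factors), CCAAT (NFY), CCGGAAG (ETS factors), GTTGCC (part of the X-box of RFX factors, which are known for ciliary genes) or AGGTCA (the core of nuclear receptor sites), on either strand. Shown are the 4 best-ranked members with a listed start under the peak, Cep128, Cep152, Cep290 and Cep19, of which Cep19 has only 61 such bases because the annotated Pigx gene lies beside it. Cep112 was added after its values were seen, because it is next in rank and holds an X-box match. Cep162 is shown as a member with no peak. It holds none of the marked letters, but it does not stand for all members without a shared peak. Among members with listed starts, GGGCGG was at 6 of 8 without a shared peak and 18 of 24 with one. CCAAT was at 4 of 8 and 12 of 24, both in 300 bases around the start.
Cep128 (chr12:91384456-91384655, minus strand): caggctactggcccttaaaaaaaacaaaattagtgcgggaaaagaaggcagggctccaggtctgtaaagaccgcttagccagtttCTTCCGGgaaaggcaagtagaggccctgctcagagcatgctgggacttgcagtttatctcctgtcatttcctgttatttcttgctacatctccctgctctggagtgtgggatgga
Cep152 (chr2:125625175-125625363, minus strand): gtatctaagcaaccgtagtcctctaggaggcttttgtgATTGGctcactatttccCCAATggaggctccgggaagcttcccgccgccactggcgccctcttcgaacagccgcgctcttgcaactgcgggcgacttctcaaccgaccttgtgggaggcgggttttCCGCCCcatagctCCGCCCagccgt
Cep290 (chr10:100487366-100487547, plus strand): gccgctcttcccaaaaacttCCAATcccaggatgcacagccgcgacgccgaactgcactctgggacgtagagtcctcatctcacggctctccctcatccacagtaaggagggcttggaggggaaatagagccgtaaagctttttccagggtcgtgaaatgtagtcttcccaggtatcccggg
Cep19 (chr16:32099728-32099788, plus strand): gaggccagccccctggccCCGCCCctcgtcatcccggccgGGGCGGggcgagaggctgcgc
Cep112 (chr11:108425016-108425214, plus strand): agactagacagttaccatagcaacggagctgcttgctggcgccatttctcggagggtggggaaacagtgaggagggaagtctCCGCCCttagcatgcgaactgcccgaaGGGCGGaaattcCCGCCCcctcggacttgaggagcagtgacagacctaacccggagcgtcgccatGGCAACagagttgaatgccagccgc
Cep162 (chr9:87255537-87255736, minus strand): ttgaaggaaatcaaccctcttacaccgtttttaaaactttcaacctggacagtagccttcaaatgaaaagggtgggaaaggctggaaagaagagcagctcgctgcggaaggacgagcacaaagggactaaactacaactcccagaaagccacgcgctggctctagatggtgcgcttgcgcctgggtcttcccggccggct
The shared peak covered 149 of these 200 bases at Cep128 and all of them at Cep152, Cep290, Cep19 and Cep112. None of the 6 holds AGGTCA.

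Shared Flag-Rxra peaks, meaning replicate 1 peaks that overlapped a replicate 2 peak by at least 1 bp, lay within 1 kb of an end of 27 of the 38 Cep genes (71.1%, exact 95% interval 54.1 to 84.6, counting error only). Over all protein-coding genes this share was 32.6%. Genes with such a peak are called bound below. The share was high in each larger role: 10 of 12 genes of centriole building and duplication, 5 of 7 appendage genes and 8 of 12 genes of the cilium, the satellites and the transition zone. Smaller roles gave 1 of 2 linker genes, 1 of 2 mitotic genes and 2 of 3 little-described genes. Where both peaks had to be covered by 50%, 14 of 38 members remained, against 20.2% of all genes.

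Folds are the authors' enrichment over the background of their peak caller. Over the 27 members they ran from 6.72 to 18.4 in replicate 1 (median 12.5) and from 8.78 to 27.9 in replicate 2 (median 17.6). Over all 7128 genes with a shared peak the medians were 11.3 and 15.7, with maxima of 47.2 and 68.9. The Cep medians thus lay somewhat above those of all bound genes, and the Cep maxima far below theirs. Above the all-gene median were 19 of 27 members in replicate 1 and 15 of 27 in replicate 2. Replicate 2 gave the higher fold at 23 of 27 members, as it did at 83.3% of all bound genes. Cep83, Cep95, Cep164 and Cep250 were the exceptions.

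**Figure D1:**
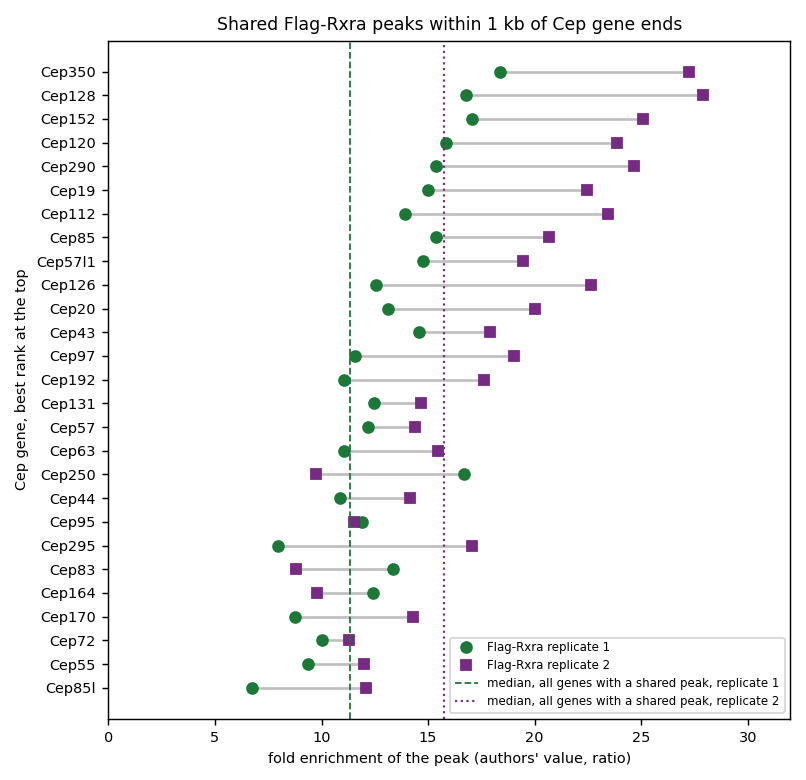
Fold enrichment (authors' ratio, x axis) of the best-ranked shared Flag-Rxra peak at each of 27 Cep genes (y axis, ordered by mean rank of fold over both replicates); circles are replicate 1, squares replicate 2, and dashed and dotted lines are the medians of all genes with a shared peak (11.3 and 15.7). Most squares lie to the right of their circle, and Cep350, Cep128 and Cep152 lie highest.

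Among genes that build and duplicate centrioles, Cep152, the scaffold that brings the kinase Plk4 to the centriole, had the strongest peak (chr2:125625037-125625388), with folds of 17.1 in replicate 1 and 25.1 in replicate 2. Its partner Cep63 had folds of 11.1 and 15.4, and Cep192, which also recruits Plk4, 11.1 and 17.6. Cep120, needed for centriole elongation, had folds of 15.8 and 23.9. Its summit lay 869 bp from the gene's end, the farthest of the bound members. Next was Cep20 with 831 bp, but there the summit lay at −66 bp from the listed start, which was inside the peak. Cep85, which acts with Stil to activate Plk4, had folds of 15.3 and 20.7 (chr4:134186766-134187380), and a further shared peak lay near its ends. Cep57l1, a paralog of Cep57, had folds of 14.8 and 19.4 (chr10:41809698-41810500), and Cep57 itself 12.2 and 14.4. Cep97, which caps centrioles with Ccp110, had folds of 11.6 and 19.03, and Cep44 10.9 and 14.1. Cep295, which turns new centrioles into centrosomes, had the widest gap between replicates in this role, with folds of 7.94 and 17.1. Cep76, which limits reduplication, and Cep135, a part of the centriole cartwheel, were the members of this role without a shared peak.

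Among appendage genes, Cep128, a subdistal appendage protein, had folds of 16.8 and 27.9 (chr12:91384018-91384604), the highest replicate 2 fold of all members. Cep112 followed with 13.9 and 23.4 (chr11:108424782-108425503). Cep164, the distal appendage protein that recruits Ttbk2 at the start of ciliogenesis, had 12.4 and 9.78, and Cep83, needed for assembly of the distal appendages, 13.3 and 8.78. Cep170, of the subdistal appendages, had 8.74 and 14.3. A separate replicate 2 peak of fold 14.8 lay near the 3′ end of Cep83 (chr10:94789413-94789539), far from the shared peak at its start.

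Among genes of the cilium, the satellites and the transition zone, Cep350 had the best-ranked Cep peak of all (chr1:155973308-155973675), with folds of 18.4 and 27.2. Cep350, Cep43 (also named FOP) and Cep19 work together at the base of the cilium. Cep19 had folds of 15.0 and 22.5 (chr16:32099424-32100049) and Cep43 14.6 and 17.9 (chr17:8164909-8165589). Cep290, a transition zone protein whose loss causes ciliopathies, had folds of 15.4 and 24.7 (chr10:100487333-100487842). Cep126 had 12.5 and 22.6 (chr9:8134217-8134600) and Cep20 13.1 and 20.004 (chr16:14317124-14317494). The satellite proteins Cep131 and Cep72 had 12.5 and 14.6, and 10.0 and 11.3. Cep131 and Cep85 were the members with 2 shared peaks near their ends.

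In the smaller roles, Cep250 (C-Nap1), which tethers the centrioles to each other, had folds of 16.7 and 9.74, the largest drop from replicate 1 to replicate 2. Cep55, a scaffold of the last step of cytokinesis, had 9.36 and 11.99, and Cep95 11.9 and 11.5. Cep85l, a paralog of Cep85, had the weakest peak by rank, with 6.72 and 12.1. A separate replicate 2 peak of fold 20.9 lay over the listed start of Cep85l (chr10:53379759-53379924), outside the shared one. Its summit was 33 bp from the gene's 5′ end, while the shared peak had its summit 503 bp from that end. By rank of shared peaks, Cep85l, Cep72 and Cep55 were the 3 weakest members.

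The 11 members without a shared peak fell into 4 kinds. Cep41, Cep70, Cep78 and Cep162 had no peak of either replicate within 1 kb, 4 of 38 members against 50.5% of all genes. Cep41 and Cep78 act in cilia, Cep162 ties microtubules to the transition zone and Cep70 binds gamma-tubulin. A peak in replicate 1 only was found at 4 members, among them Cep76, Cep135 and Cep295nl, with folds of 8.07, 7.03 and 7.76. Cep68, another linker protein, and Cep170b had one in replicate 2 only, with folds of 20.3 and 9.75. Cep89 had a peak in each replicate, of folds 7.77 and 11.9, that did not overlap. A single replicate therefore gave 32 of 38 members (replicate 1, against 41.7% of all genes) or 30 of 38 (replicate 2, against 42.1%). Outside the 1 kb limit, the nearest shared peak lay 4465 bp from Cep295nl and next 12518 bp from Cep70. Widening the window to 2.5 kb thus added no member (27 of 38, against 37.0% of all genes), and 50 kb gave 35 of 38 (against 68.1%), all but Cep76, Cep89 and Cep135.

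The peaks sat at the starts of the genes. A start with a strand was listed for 32 members, of which 24 had a shared peak. At all 24 the summit lay nearer to the 5′ end than to the 3′ end, as at 93.3% of 5850 bound genes with a strand. The listed start lay inside the peak at 21 of 24 members, against 70.2% of those genes. The median distance from the summit to the nearest listed start was 136.5 bp, against 133.5 bp over all. Within 250 bp lay 19 of 24 summits, against 70.8% over all. Of the 24, 18 lay upstream of the start, 5 downstream and that of Cep128 at the start itself. Over all 5850 bound genes with a strand most summits lay upstream too, with 3755 upstream and 35.6% downstream. Replicate 2 summits gave a median of 140.5 bp, with 21 upstream and 3 downstream, against 32.6% downstream over all. Summits of the replicates stood far apart at Cep44, at −192 bp in replicate 1 and −947 bp in replicate 2.

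**Figure D2:**
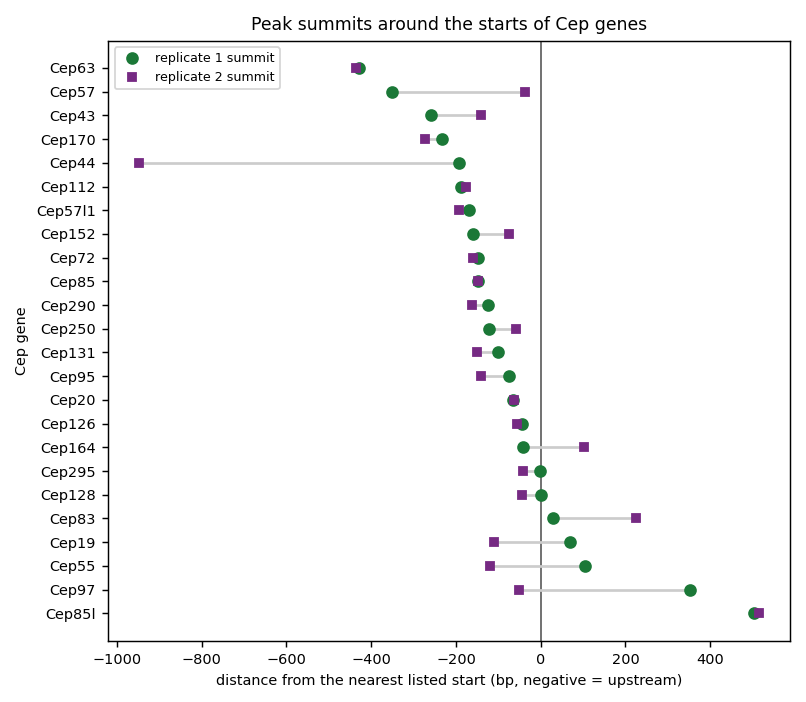
Distance in bp (x axis, negative is upstream) of the peak summit from the nearest listed start for the 24 Cep genes with a shared peak and a listed start (y axis); circles are replicate 1 and squares replicate 2. Most points lie on the upstream side within 250 bp, and the shared peak of Cep85l lies farthest downstream at 503 and 516 bp.

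Some peaks cannot be given to a Cep gene alone. An end of another protein-coding gene lay within 1 kb of an end of 16 of 38 members, against 24.8% of all genes. The shared peak itself covered an end of the neighbour at 7 members: Cep19 (Pigx), Cep44 (Fbxo8), Cep57 (Fam76b), Cep63 (Anapc13), Cep95 (Ddx5), Cep170 (Sdccag8) and Cep290 (Tmtc3). Over all bound genes 20.8% of peaks did so. The neighbour Sesn1 lay within 1 kb of the Cep57l1 peak. Without these 8 genes, 19 of 30 members held a shared peak, against 24.9% of all genes treated alike. Bound members were about as frequent with such a neighbour as without: 11 of 16 with one and 16 of 22 without one. Over all genes these shares were 53.7% and 25.6%.

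In other lists of centrosome and cilium genes the share ran from 52.6% to 76.5%. Shared peaks lay at 13 of 17 genes of the pericentriolar material, 15 of 24 of centriole structure and duplication, 8 of 13 of the appendages, 13 of 22 of satellites and transition zone and 10 of 19 of intraflagellar transport, the motor-driven traffic inside cilia. The satellite list includes Azi2 by mistake, which is a kinase adaptor and not a satellite gene. It was bound and is counted in that list and in all lists together. Over the 95 genes of these lists together, 59 (62.1%, exact 95% interval 51.6 to 71.9) were bound. Differences between the lists were not tested.

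**Figure D3:**
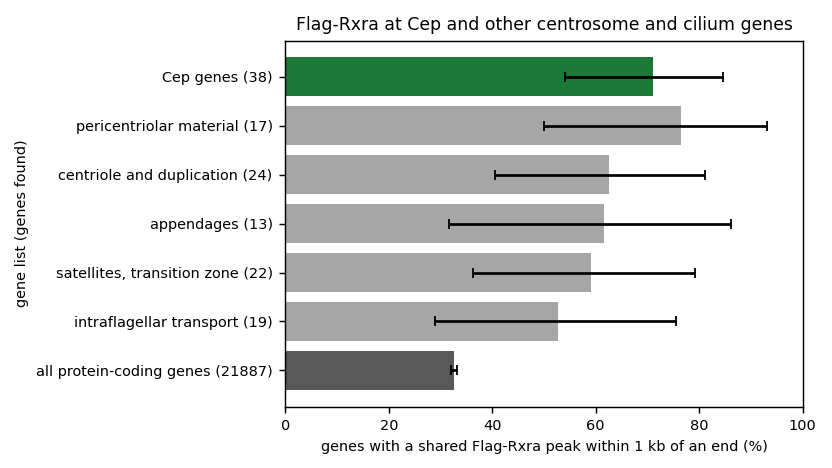
Percent of genes (x axis) with a shared Flag-Rxra peak within 1 kb of an end, for Cep genes, 5 other lists of centrosome and cilium genes and all protein-coding genes (y axis, genes found in brackets); bars start at 0 and error bars are exact 95% binomial intervals, which cover counting error only. All 6 lists lie above the 32.6% of all genes. That share lies inside the intervals of the appendage list (31.6 to 86.1) and the intraflagellar transport list (28.9 to 75.6). Cep genes were picked for frequent peaks and no list was tested, so an interval above that share is not a test result.

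The letters at the starts of Cep genes were set beside those of all genes and of all bound genes. Shares of Cep genes are over 32 members, of which 24 were bound and 8 were not. They are therefore not like for like with the shares of bound genes. Among the 32 members with listed starts, in 300 bases from 250 before to 50 after a start, GGGCGG was found at 24 (75%), against 49.2% of 17492 genes and 73.2% of all bound genes. GGCGGG, a core of E2F sites that can overlap GGGCGG, was found at 27 (84.4%), against 48.7% and 72.0%, and GGCGCG, its other core, at 17 (53.1%), against 28.3% and 42.2%. CCAAT was found at 16 (50%), against 42.3% and 47.4%. GTTGCC was found at 8 (25%), against 14.3% and 14.7%, but in the 250 bases before the start alone it was found at 4 (12.5%), against 12% of all genes. ATGGCG (YY1) was found at 7 (21.9%), against 12.4% and 18.5%, and before the start alone at 3 (9.38%), against 7.40% of all genes. TTTGAA (CHR element) was found at 9 (28.1%), against 18.5% and 13.2%, and before the start alone at 6 (18.8%), against 16.9% and 11.6%. CCGGAAG was found at 5 (15.6%), against 12.9% of all genes and 22.1% of bound genes. All 5 were among the 24 bound members, with 0 among the 8 unbound. AGGTCA was found at 4 members (12.5%), against 16.7% and 13.7%, namely Cep20 and Cep95, which were bound, and Cep78 and Cep135, which were not. A pair of AGGTCA with 1 base between them was found at 0 of 32, against 0.0572% and 0.0684%. TGANTCA (AP-1) was also found at 0, against 8.12% and 5.33%, GTTCNANNC (B box) at 4, against 9.67% and 9.95%, GCGCATGC (NRF1) at 2, against 3.94% and 6.91%, and TGACGTCA (CRE) at 1, against 2.54% and 3.90%. Cep starts were rich in G and C, with a median of 63.0% against 56.3% over all genes and 62.0% over bound genes. Their median CpG count was 26, against 13 and 22. Unbound members, with 65.0% and 26 CpG, did not stand apart from bound ones, with 62.3% and 26.5.

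H3K27ac values did not enter the choice of members, but the Flag-Rxra peaks that did were more frequent at genes with such a region (50.6% of them were bound) than at genes without one (12.2%). Regions lay within 1 kb of an end of 20 of 38 members in CD and of 23 in DMSO, against 38.3% and 35.8% of all genes. Among bound genes alone, 17 of 27 Cep members in CD (63.0%) and 18 of 27 in DMSO (66.7%) stood beside 60.9% and 64.1% of all bound genes, so the excess over all genes was not seen among bound genes. In both lists it was 15 members (21.2% of all genes), in CD only 5 (17.1%), in DMSO only 8 (14.7%) and in neither 10 (47.0%). The 10 were Cep41, Cep63, Cep70, Cep78, Cep85l, Cep131, Cep152, Cep162, Cep170b and Cep192. Of them, Cep63, Cep85l, Cep131, Cep152 and Cep192 held a shared Flag-Rxra peak all the same. Of the 28 members with H3K27ac in either list 22 were bound, against the 50.6% above.

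The shared Flag-Rxra peak itself overlapped an H3K27ac region at 14 of 27 members in CD, at 14 in DMSO, at 8 in both and at 7 in neither. Over all bound genes these shares were 37.6%, 46.0%, 23.7% and 40.1%. At the Cep peaks the −log10 q of the region ran from 1.13 (Cep250) to 2.52 (Cep19) in CD and from 1.25 (Cep170) to 2.93 (Cep44) in DMSO, where the lists stop at 1.00. The medians there were 1.61 and 1.63, beside 1.39 and 1.5 over the whole lists, so most regions of both lists were weak. No Cep peak lay in regions of −log10 q of 5 or more of both lists. Stronger regions lay at members without a shared peak: in DMSO at Cep76, with 9.21 and a fold of 6.05, which also covers an annotated end of the neighbour Psmg2, and in CD at Cep135, with 4.52 and a fold of 5.33. The Cep135 region (chr5:76646055-76646219) lay near the 3′ end of the gene, not at its start. When regions had to reach a −log10 q of 2, 4 members in CD (10.5%, all genes 6.65%) and 6 in DMSO (15.8%, all genes 8.84%) kept an H3K27ac region within 1 kb. Of the 27 Cep peaks, 1 then overlapped a CD region and 4 a DMSO region, beside 8.02% and 13.1% of the peaks at all bound genes.

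Close to the gene ends, H3K27ac covered more bases after DMSO than after CD at most Cep genes. Within 2.5 kb, 23 of 38 members had more covered bases in DMSO, 12 had more in CD and 3 were equal (Cep41, Cep78 and Cep131, with 0 in both). Over all genes 32.1% had more in DMSO, 35.8% more in CD and 32.1% were equal. Over all genes with a shared Flag-Rxra peak, 49.5% had more in DMSO and 43.7% more in CD, beside 17 and 9 of the 27 bound Cep members. The median difference of CD minus DMSO was −139 bases over the members and 0 over all genes. Cep19 had 141 covered bases after CD and 1430 after DMSO, Cep290 176 and 994, and Cep350 811 and 1607. The opposite held at Cep126, with 595 in CD and 0 in DMSO, Cep164, with 637 and 173, and Cep128, with 356 and 0. When regions had to reach a −log10 q of 2, 26 members were equal, 7 had more in DMSO and 5 more in CD, against 78.6%, 11.8% and 9.69% of all genes. The 7 were Cep44 (−1327 bases), Cep76 (−1080), Cep290 (−817), Cep85 (−599), Cep68 (−328), Cep97 (−304) and Cep170b (−207). The 5 were Cep83 (381), Cep135 (165), Cep85l (145), Cep19 (141) and Cep20 (137), and Cep19, Cep20 and Cep85l had thus turned from DMSO to CD. Cep126, Cep128, Cep164 and Cep350 were then equal. Summed over the 38 members, CD minus DMSO was −7570 bases in all regions and −3693 in those of −log10 q of 2 or more. With covered lengths matched between the lists, 24 members had more in DMSO and 9 in CD, against 34.1% and 31.3% of all genes.

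Farther out the balance was the other way. Within 50 kb, 28 of 38 members had more covered bases in CD and 10 in DMSO, against 59.0% and 31.5% of all genes, of which 9.44% were equal. Genes with a shared Flag-Rxra peak gave 60.5% and 39.4%. The median difference was 662 bases over the members and 262 over all genes. The CD list is longer (37.3 Mb against 31.1 Mb), and with covered lengths matched between the lists 20 members had more in CD and 18 in DMSO, against 46.0% and 42.7% of all genes. When regions had to reach a −log10 q of 2, 20 members had more in CD and 16 in DMSO, against 34.5% and 39.1% of all genes, and the median difference was 140.5 bases, against 0. Cep genes are long (median 42.7 kb against 17.2 kb), which widens the stretch that these windows cover. Median covered bases within 50 kb were 3389.5 in CD and 2305.5 in DMSO over the members, against 3043 and 2482 over all genes. The part of gene length in these differences was not tested.

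The largest excess in CD within 50 kb stood at Cep78, with 5499 covered bases after CD and 1405 after DMSO. Cep135 had 3819 and 358, Cep164 5000 and 1673, Cep89 4266 and 1080, and Cep41 3647 and 1126. Of these, Cep164 alone held a shared Flag-Rxra peak. All 5 kept an excess in CD with matched lengths, from 1010 bases at Cep41 to 2613 at Cep164. When regions had to reach a −log10 q of 2 it remained at Cep135 (912 bases) and Cep164 (1007), was 0 at Cep78 and turned to −333 at Cep41 and −361 at Cep89.

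The largest excess in DMSO within 50 kb stood at Cep19, with 1607 covered bases after CD and 4030 after DMSO. Cep295 had 1858 and 2930, Cep131 4047 and 5098, Cep55 3357 and 3998, and Cep120 725 and 1176, and all 5 held a shared peak. When regions had to reach a −log10 q of 2, only Cep120 kept an excess in DMSO (−83 bases), while Cep19 (141), Cep295 (1006), Cep131 (536) and Cep55 (152) turned to CD. Over the 27 members with a shared peak, 19 had more in CD and 8 in DMSO, and over the other 11 these counts were 9 and 2. The lone list per condition gives no error for any of these differences.

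**Figure D4:**
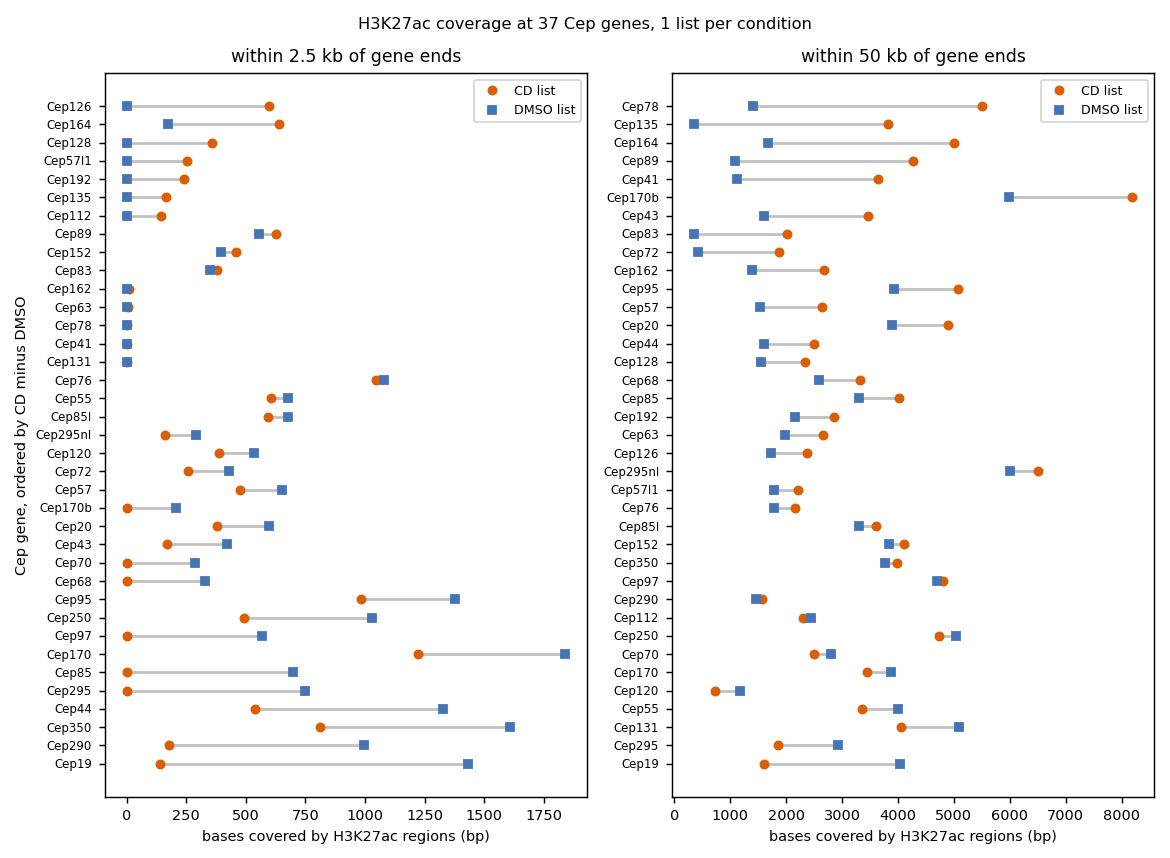
Bases covered by H3K27ac regions (x axis) within 2.5 kb (left) and 50 kb (right) of the ends of 37 of the Cep genes (y axis, ordered by CD minus DMSO), with circles for the CD list and squares for the DMSO list, 1 list per condition. On the left 22 of those shown have the square farther right, and on the right 28 have the circle farther right.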

How the data were processed

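The authors deposited peak lists: narrow peaks for each Flag-Rxra replicate and 1 broad-region list per H3K27ac condition, per the labels. The sources used here do not give how H3K27ac replicates were combined, nor whether peaks were called against a control. Per the submitters' processing notes, the build was mm10 and the tools included MACS2 2.1.2 and Bowtie2 2.2.5, besides deepTools 3.4.3 and fastp 0.20.1. The fold of a peak is the ratio over background deposited by the authors, and the −log10 q is their deposited value, used to describe, rank or filter peaks. Their deposited score column was not used. The lowest −log10 q was 5.00 for Flag-Rxra but 1.00 for H3K27ac, and folds of narrow and broad lists are not on a common scale.

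Gene ends, starts and sequences came from RefSeq tables of GRCm38.p6, the assembly of mm10. Of the members, 32 matched a listed start and 6 did not. Overlap meant 1 bp or more, and covered bases were summed over the union of windows around both gene ends. A member's peak was its shared peak with the best mean rank of fold over both replicates. The replicate 2 fold is that of the strongest overlapping peak. Named were the 12 best and 3 weakest members by rank, those with no peak, and the 5 largest differences per direction within 50 kb and 3 within 2.5 kb. Other members were named by role. The values of 1 member are not reported here, though it is counted. No test was made: members were picked on Flag-Rxra peaks, and H3K27ac had 1 list per condition. Members and lists were chosen with earlier results of these data known. Interval code was tested on simulated data. Python 3.11.15, numpy 2.4.6, pandas 2.3.3, scipy 1.17.1 and matplotlib 3.10.9 were used.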

Additional observations from a re-analysis of the deposited data

How the results depend on the processing

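The count of 27 Cep genes with a shared Flag-Rxra peak became 14 of 38 with an overlap of 50% of both peaks, which left out 13 members, among them Cep112, Cep126 and Cep128. It was 21 with a −log10 q of 20 or more in both replicates (24.2% of all genes). Leaving out peaks in strong H3K27ac regions of both lists gave 27 (32.5% of all genes). That setting could not change the count, because no Cep peak lay in such regions. Without replicate 1 it was 30 and without replicate 2 it was 32. With H3K27ac regions of −log10 q of 2 or more, 4 members in CD and 6 in DMSO had a region within 1 kb, 1 Cep peak overlapped a CD region and 4 a DMSO region (8.02% and 13.1% of peaks at all bound genes). Within 2.5 kb, 5 members then had more in CD and 7 in DMSO, with a median difference of 0. Within 50 kb, 16 then had more in DMSO (39.1% of all genes) and 20 in CD (34.5%), with a median of 140.5 bases. With lists matched on covered bases, 18 had more in DMSO within 50 kb, with a median of 22 bases, while within 2.5 kb 24 had more in DMSO and 9 in CD. In the 250 bases before the start only, ATGGCG was found at 3 members (9.38%, all genes 7.40%), GTTGCC at 4 (12.5%, all genes 12%) and GTTCNANNC at 1 (3.12%, all genes 8.33%). TTTGAA was found there at 6 (18.8%, all genes 16.9%). Both replicates of an H3K27ac condition share a list, so leaving out a replicate was not possible there. No paired analysis was possible because the H3K27ac lists carry no replicate number and no result comes from a test. Depth is unknown, so a gene without a peak cannot be told from a gene covered too thinly.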
